A study of Callithrix jacchus with 39 samples.

Results

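Embryonic stem cells (ESCs) of the common marmoset, Callithrix jacchus, were compared between 3 libraries titled DSY-c2_P_Tg and 3 titled DSY127. All 6 are labelled primed ESCs, and they were chosen by title from 39 libraries, of which 18 are ESCs. No label says what Tg carries or whether it was switched on in these cells. The titles of another group end in TgON and those of a further one in TgOFF, while these titles end in Tg alone. The labels do not say that DSY-c2 derives from DSY127, that either is 1 clone, or that replicates are separate cultures. The p-values below therefore rest on how far replicate libraries differ, and part of that may be technical. Line, Tg and any difference in culture cannot be told apart between the groups. A second pair in the series, N40_P_Tg and No.40 (3 primed libraries each), is set beside the first where it helps to place a gene.

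Primed pluripotent stem cells resemble the epiblast after implantation, express POU5F1, SOX2 and NANOG, and can be moved toward a naive state that resembles the epiblast before implantation. Primate ESCs are commonly grown on a layer of feeder fibroblasts and can differentiate in part of a culture, so a bulk library can hold RNA of both. In bulk RNA, fewer cells of a type and less RNA per cell cannot be told apart. The label was checked against pluripotency genes. POU5F1, the core pluripotency factor, was at 1020, 1130 and 945 CPM (counts scaled to library size and composition) in DSY127 and 977, 900 and 1230 CPM in DSY-c2_P_Tg. SFRP2, a marker of the primed state, was at 462, 529 and 428 CPM and at 628, 402 and 566 CPM. ZIC2, another primed marker, was at 187, 182 and 192 CPM and at 221, 244 and 272 CPM. The groups overlapped for POU5F1 and SFRP2, and every library of both groups held counts of all 3.

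The DSY127 libraries held 45900648 to 54647459 counts and the DSY-c2_P_Tg libraries 63420390 to 63990669. Correlations of log2 CPM over 17957 genes were 0.985 to 0.987 within DSY127, 0.978 to 0.99 within DSY-c2_P_Tg and 0.964 to 0.978 between the groups. Replicate 4 of DSY-c2_P_Tg stood apart from replicates 2 and 5 in genes of mesoderm and endoderm, described below. The columns of the deposited table also differ in a suffix. Both columns of every DSY-c2_P_Tg library end in L6 or L7, and those of every DSY127 library in L1 or L2. What the suffix stands for is not given in the sources used here. Suffix and group coincide within this comparison, so the suffix effect had to be estimated in 2 other ESC groups, No.40 and DSY-c2_N_TgON, which hold both kinds of column. DSY-c2_N_TgON is a group of naive cells, and No.40 replicate 1 stood apart from its group, as described below.

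Genes that differed were mostly lower in DSY-c2_P_Tg, among them the collagen genes COL3A1 and COL1A1 and the transcription factor genes NR2F1 and PRRX1. Of 17957 genes tested, 337 (1.88%) passed an adjusted p of 0.05 in edgeR's quasi-likelihood test with Benjamini-Hochberg adjustment. In DSY-c2_P_Tg 28 were higher (0.156%) and 309 lower (1.72%). The falls were large, with a median log2 change of -4.33, or -4.17 with the 30 genes that had no count in DSY-c2_P_Tg set at the bound that 3 counts over the group allow. The rises were small, with a median log2 change of 0.94, and the median over all genes tested was 0.0. All 3 libraries of one group lay above all 3 of the other in each of the 337 genes, against 19.7% of all genes tested. The same values gave the calls, so this separation follows largely from the choice of genes and is no further support. Most falls were of low level, with a median of 2.96 CPM in DSY127, and 71 of the 309 reached 10 CPM there. With suffix as a covariate, 100 genes (0.557%) passed, 27 higher (0.15%) and 73 lower (0.407%), and 78 of them were among the 337, 10 rises and 68 falls. The count fell to 146 without DSY-c2_P_Tg replicate 2, 186 without replicate 4, 149 without replicate 5 and 149 without DSY127 replicate 1.

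**Figure D1:**
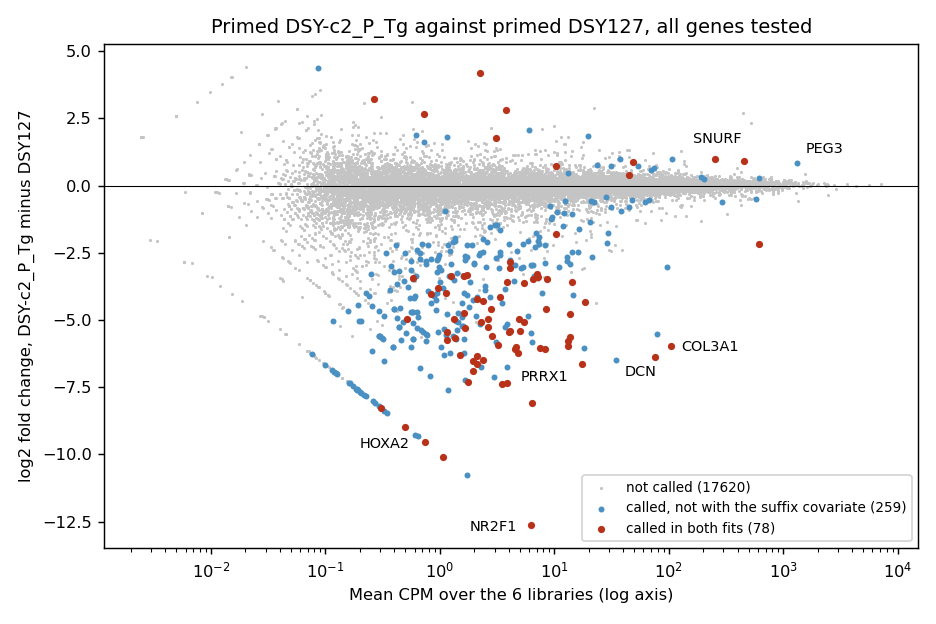
Log2 fold change of DSY-c2_P_Tg minus DSY127 (y axis) against the mean CPM of the 6 libraries (x axis, log scale), 1 point for each of 17957 genes tested. Red points are the 78 genes called in both fits and blue points the 259 called without the suffix covariate alone, and most of both lie below 0. The diagonal line of points at the lower left holds genes with no count in DSY-c2_P_Tg, whose plotted value depends on the prior count of the fit.

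Collagen genes were among the falls. COL3A1, the chain of type III collagen, was at 365, 112 and 137 CPM in DSY127 and 1.24, 7.76 and 0.975 CPM in DSY-c2_P_Tg. That is a log2 change of -5.95 ± 0.94 (SE, n = 3 a group, adjusted p = 0.00408 in edgeR). The groups did not overlap, and replicate 4 was the highest of the DSY-c2_P_Tg libraries. COL1A1, a chain of type I collagen, was at 1590, 635 and 773 CPM and at 188, 165 and 304 CPM, a log2 change of -2.19 ± 0.43 (edgeR adjusted p = 0.0155). Its partner chain COL1A2 was at 274, 67.6 and 173 CPM and at 12.9, 25.1 and 25.2 CPM, a log2 change of -3.03 ± 0.66 (edgeR adjusted p = 0.033). DCN, the small proteoglycan decorin that binds collagen fibrils, was at 47.1, 10.2 and 146 CPM and at 0.637, 1.41 and 0.24 CPM, a log2 change of -6.47 ± 1.5 (edgeR adjusted p = 0.0433). Replicate 3 was the highest DSY127 library for DCN and replicate 1 for the 3 collagen genes.

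Of the 14 tested genes of the list of fibroblast and mesenchyme markers, 5 fell and none rose (COL1A1, COL1A2, COL3A1, DCN and PRRX1), where 1.72% of all genes tested fell, with a list median log2 change of -0.64. The other 9 were not called. Among them POSTN, another matrix gene of fibroblasts, was at 48.3, 104 and 337 CPM in DSY127 and 96.8, 188 and 7.84 CPM in DSY-c2_P_Tg, and FN1, fibronectin, at 4000, 2210 and 6930 CPM and 1850, 9840 and 1130 CPM. In both genes the groups overlapped widely. The summed level of the list was 4220 to 10500 CPM in DSY127 and 2160 to 12600 CPM in DSY-c2_P_Tg, and no defining marker among DCN, COL1A1, COL1A2 and POSTN was at 0 in any of the 6 libraries. The part of fibroblast RNA in the falls was not tested. Of 25 tested collagen and laminin genes, 5 fell (COL1A1, COL1A2, COL2A1, COL3A1 and COL5A1) and none rose, against the same 1.72%, with a median of -0.37. None of the laminins was among them. LAMB2, a laminin chain, was at 208, 245 and 216 CPM and at 234, 202 and 245 CPM. COL12A1, a collagen of the fibril surface, passed with the suffix covariate alone (log2 -3.39, edgeR adjusted p = 0.0165, against -2.01 and 0.0658 without it).

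Of these matrix genes COL3A1 and COL1A1 stayed called with the suffix covariate (edgeR adjusted p = 0.0213 and 0.0374), whereas COL1A2 (0.084), DCN (0.274), COL2A1 (0.313) and COL5A1 (0.336) did not. Neither COL3A1 nor COL1A1 passed with the suffix effect taken from No.40 alone or from DSY-c2_N_TgON alone. The COL5A1 call ended without any 1 library (edgeR adjusted p 0.052 to 0.373), and that of COL2A1 without DSY-c2_P_Tg replicate 4 or 5 or DSY127 replicate 1 (up to 0.0707). Leaving out single libraries kept the COL3A1 call each time. The COL1A1 call ended without DSY-c2_P_Tg replicate 2 or 4 or DSY127 replicate 1, with a log2 change of -2.45 to -1.63 and an adjusted p of up to 0.108 over all 6 such fits. Those of COL1A2 (log2 -3.35 to -2.47, edgeR adjusted p up to 0.186) and DCN (log2 -7.21 to -5.17, up to 0.216) ended without any 1 library but DSY127 replicate 2. A fit of the 6 libraries alone ended the calls of all 4 and that of COL5A1 (edgeR adjusted p 0.055 to 0.0974). Without DSY-c2_P_Tg replicate 4, 2 of the 14 fibroblast genes and 1 of the 25 collagen and laminin genes were called lower, with list medians of -1.59 and -0.52.

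**Figure D2:**
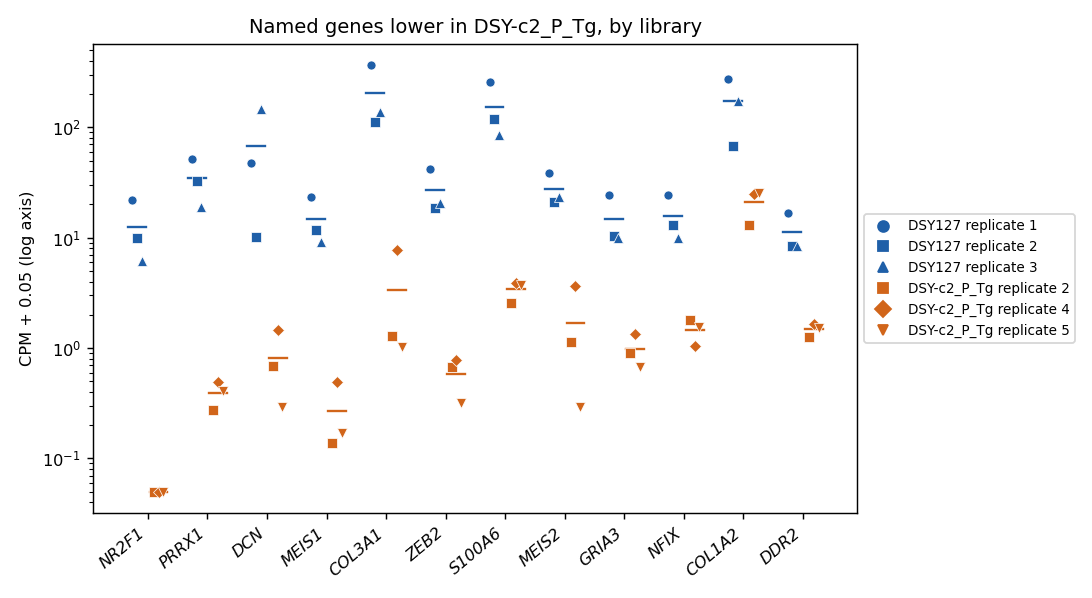
CPM plus 0.05 (y axis, log scale) of the 12 named genes with the largest falls, by library; marker shapes give the replicate, blue is DSY127, orange is DSY-c2_P_Tg and bars are arithmetic means. Every orange point lies below every blue point of its gene, and DSY127 replicate 1 is the highest blue point in all but DCN.

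Some of the named falls encode transcription factors, which were gathered from the calls and are not a list of their own. NR2F1, an orphan nuclear receptor of neural crest, nervous system and mesenchyme, was at 21.7, 9.97 and 6.07 CPM in DSY127. It had no count in any DSY-c2_P_Tg library (edgeR adjusted p = 0.00174). The fold bound from 3 counts over the group was 837, which assumes that each count is a separate fragment. Low counts were even in excess, so fragments may be counted more than once and such bounds may be too high. PRRX1, a homeobox factor of limb and connective tissue mesenchyme, was at 52.0, 32.9 and 18.9 CPM and at 0.222, 0.446 and 0.36 CPM, a log2 change of -6.65 ± 0.80 (edgeR adjusted p = 7.92e-04). In both genes DSY127 replicate 1 was the highest library and replicate 3 the lowest of its group.

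MEIS1, a homeobox cofactor of HOX proteins, was at 23.1, 11.6 and 9.17 CPM and at 0.0888, 0.446 and 0.12 CPM (log2 -6.06 ± 0.81, edgeR adjusted p = 8.5e-04). Its relative MEIS2 was at 38.4, 21.0 and 23.5 CPM and at 1.08, 3.63 and 0.24 CPM (log2 -4.07 ± 0.75, edgeR adjusted p = 0.00943). ZEB2, a zinc finger repressor of epithelial genes, was at 41.5, 18.6 and 20.5 CPM and at 0.622, 0.723 and 0.27 CPM (log2 -5.64 ± 0.95, edgeR adjusted p = 0.00538). All 3 were higher in every DSY127 library than in any DSY-c2_P_Tg library. NFIX, a nuclear factor I protein active in muscle and brain, was at 24.1, 13.1 and 9.8 CPM and at 1.75, 0.999 and 1.5 CPM (log2 -3.46 ± 0.60, edgeR adjusted p = 0.00487).

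HOX genes, which set position along the body axis, summed to 22.9, 9.71 and 31.8 CPM in DSY127 and 5.76, 11.2 and 4.96 CPM in DSY-c2_P_Tg. Of 19 tested, 5 fell and none rose, where 1.72% of all genes tested fell, with a median of -3.98, or -3.48 with the 4 genes without a DSY-c2_P_Tg count at their bounds. HOXA2, which patterns the hindbrain and branchial arches, was at 2.52, 1.22 and 0.704 CPM in DSY127 and had no count in DSY-c2_P_Tg (edgeR adjusted p = 0.00572). Its fold bound was 98.4 if each count is a separate fragment. HOXA11 was at 1.67, 0.474 and 2.32 CPM and at 0.0296, 0.0615 and 0 CPM (log2 -5.53 ± 1.32, edgeR adjusted p = 0.0419). HOXA4, HOXB4 and HOXB7 also fell, each from at most 1.27 CPM in any DSY127 library. HOXD1, in contrast, was at 4.26, 3.35 and 4.56 CPM and at 4.63, 6.7 and 4.23 CPM and was not called.

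NR2F1, PRRX1, MEIS1, ZEB2, NFIX and HOXA2 stayed called with the suffix covariate (edgeR adjusted p from 0.0149 to 0.0471) and without any 1 library. With the suffix effect taken from No.40 or DSY-c2_N_TgON alone, PRRX1 passed from both. MEIS1 and NFIX passed from DSY-c2_N_TgON only, and NR2F1, ZEB2 and HOXA2 from neither. MEIS2 did not pass with the covariate (0.137) and ended without DSY-c2_P_Tg replicate 2 (edgeR adjusted p = 0.0793 there). HOXA4, HOXA11, HOXB4 and HOXB7 passed neither with the covariate (0.06 to 0.269) nor in at least 3 of the 6 fits without 1 library each. Without DSY-c2_P_Tg replicate 4, HOXA2 and HOXA4 passed and HOXA11, HOXB4 and HOXB7 did not.

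Other named falls were receptors and surface or calcium-binding proteins. S100A6, a calcium-binding protein abundant in fibroblasts, was at 256, 119 and 85.8 CPM in DSY127 and 2.53, 3.87 and 3.66 CPM in DSY-c2_P_Tg (log2 -5.52 ± 0.81, edgeR adjusted p = 0.00251). DDR2, a collagen receptor kinase, was at 16.7, 8.35 and 8.45 CPM and at 1.21, 1.61 and 1.48 CPM (log2 -2.95 ± 0.59, edgeR adjusted p = 0.014). GRIA3, an AMPA glutamate receptor subunit, was at 24.2, 10.4 and 9.84 CPM and at 0.859, 1.28 and 0.63 CPM (log2 -4.00 ± 0.93, edgeR adjusted p = 0.0408). In each gene the 3 DSY-c2_P_Tg libraries lay close together and DSY127 replicate 1 was the highest. PCDH19, a protocadherin and the 1 of 27 tested cadherin genes that fell (1.72% of all genes tested did), was at 15.5, 6.23 and 5.56 CPM and at 1.32, 1.34 and 0.615 CPM (log2 -3.06 ± 0.58, edgeR adjusted p = 0.0096). None of these 4 passed with the suffix covariate, S100A6 by the least (0.0554). S100A6 passed without any 1 library, GRIA3 in none of the 6 such fits (0.0546 to 0.2), DDR2 in those without DSY127 replicate 2 or 3, and PCDH19 in those without DSY-c2_P_Tg replicate 4 or DSY127 replicate 2 or 3.

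Several further falls, named here after their values were seen, have similar known roles. They were picked for those roles, and other called falls were not, such as CP (log2 -4.16), AKAP6 (log2 -1.03) and CFAP54 (log2 -0.95). FAP, a surface protease of activated fibroblasts, was at 5.5, 2.51 and 2.39 CPM in DSY127 and had no count in DSY-c2_P_Tg. Its fold bound was 231 if each count is a separate fragment. OGN, the matrix proteoglycan osteoglycin, was at 13.0, 8.24 and 1.57 CPM and at 0.0592, 0.0769 and 0 CPM. RUNX2, the bone-forming transcription factor, was at 4.69, 1.97 and 2.48 CPM and at 0.148, 0.0923 and 0 CPM. The matrix genes ASPN and BGN, the WNT agonist RSPO2, the activin subunit INHBA and the factors TBX15, FOXC2 and EBF1 fell as well. OGN, ASPN, RSPO2, EBF1 and the membrane metalloprotease MMP16 stayed called with the suffix covariate, so that 13 of the 61 falls with a symbol did: these 5 with NR2F1, HOXA2, PRRX1, MEIS1, COL3A1, ZEB2, NFIX and COL1A1. The calls of INHBA, EBF1, TBX15, FOXC2 and MMP16 ended in 3 to 5 of the 6 fits without 1 library, among them those without DSY-c2_P_Tg replicate 2 and DSY127 replicate 1 (edgeR adjusted p up to 0.183). FAP, OGN, RUNX2, ASPN, BGN and RSPO2 passed in all 6.

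Falls were shared unevenly between genes with and without a symbol, and among the DSY127 libraries. Genes without a symbol made up 80.3% of the falls (248 of 309) and 35.6% of the genes tested. Of the genes without a symbol 3.88% fell, and of those with one 0.528%. DSY127 replicate 1 was the highest of its group in 281 of the 309 falls (90.9%), against 28.5% of all genes tested. The share was 96% in falls without a symbol and 70.5% in those with one. Its ratio to replicate 2 had a median of 2.0 over the falls and 0.992 over all genes with a count in every DSY127 library. The summed level of the 309 genes was 6763, 3902 and 4046 CPM in DSY127 and 1439, 1369 and 1585 CPM in DSY-c2_P_Tg. The sum rests most on the most abundant of these genes. The 149 genes called without DSY127 replicate 1 were 11 of the 28 rises and 138 of the 309 falls.

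A smaller set of falls was tight within both groups and moderate in size. EPN2, an endocytic adaptor of the epsin family, was at 51.2, 51.5 and 49.1 CPM in DSY127 and 28.9, 21.6 and 29.1 CPM in DSY-c2_P_Tg (log2 -0.93 ± 0.13, edgeR adjusted p = 0.00132). HEATR3, which takes part in nuclear import of a ribosomal protein complex, was at 37.8, 39.3 and 41.7 CPM and at 24.6, 20.4 and 23.8 CPM (log2 -0.79 ± 0.12, edgeR adjusted p = 0.00207). RABGAP1, a GTPase-activating protein of membrane traffic, was at 55.8, 57.1 and 56.4 CPM and at 38.1, 40.8 and 38.7 CPM (log2 -0.53 ± 0.08, edgeR adjusted p = 0.00219). These 3 passed without any 1 library but not with the suffix covariate (0.0747, 0.0999 and 0.0747), where their log2 changes were -0.81, -0.70 and -0.51.

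IL6ST, the signalling receptor subunit shared by LIF and interleukin 6, was at 68.2, 71.0 and 84.3 CPM and at 54.8, 39.7 and 49.9 CPM (log2 -0.63 ± 0.15, edgeR adjusted p = 0.0413). It was the 1 called gene of 8 tested in the LIF-STAT3 pathway, and LIFR, JAK1, JAK2 and STAT3 were not called. The IL6ST call ended in every fit without 1 library (edgeR adjusted p 0.1 to 0.311) and with the suffix covariate (0.384).

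The rises with a symbol were 8, and 3 of them are paternally expressed imprinted genes. SNURF was at 164, 179 and 165 CPM in DSY127 and 378, 279 and 349 CPM in DSY-c2_P_Tg, a log2 change of 0.98 ± 0.15 (edgeR adjusted p = 0.00194). SNRPN, whose transcripts are made from the same locus and overlap those of SNURF, was at 34.3, 38.1 and 31.3 CPM and at 57.5, 57.7 and 73.9 CPM, a log2 change of 0.87 ± 0.17 (edgeR adjusted p = 0.00943). How reads were divided between the 2 genes is uncertain, so they are 1 observation rather than independent ones. PEG3, a zinc finger gene, was at 870, 988 and 982 CPM and at 1750, 1490 and 1780 CPM, a log2 change of 0.82 ± 0.13 (edgeR adjusted p = 0.00253). The groups were far apart in all 3 genes, and replicate 4 was the lowest DSY-c2_P_Tg library for SNURF and PEG3.

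Of 13 imprinted or X inactivation genes tested, these 3 rose and none fell, where 0.156% of all genes tested rose, with a list median of -0.04. With SNURF and SNRPN taken as 1 observation, the rises are 2. NDN, also paternally expressed and a neighbour of the SNRPN locus in mammals, was at 12.6, 11.4 and 11.6 CPM and at 16.3, 17.1 and 16.1 CPM but was not called (log2 0.48 ± 0.16, edgeR adjusted p = 0.226). MEST, another such gene, was at 456, 514 and 505 CPM and at 405, 444 and 447 CPM and was not called either (log2 -0.19 ± 0.13). The other 10 genes of the list were not called. SNURF and SNRPN stayed called with the suffix covariate (log2 1.3 and 1.27, edgeR adjusted p = 0.0149 and 0.0165), and PEG3 did not (log2 0.86, 0.0627). Neither SNURF nor SNRPN passed with the suffix effect taken from DSY-c2_N_TgON alone. The SNRPN call ended without DSY-c2_P_Tg replicate 5 or DSY127 replicate 1, where the adjusted p rose to at most 0.0613.

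**Figure D3:**
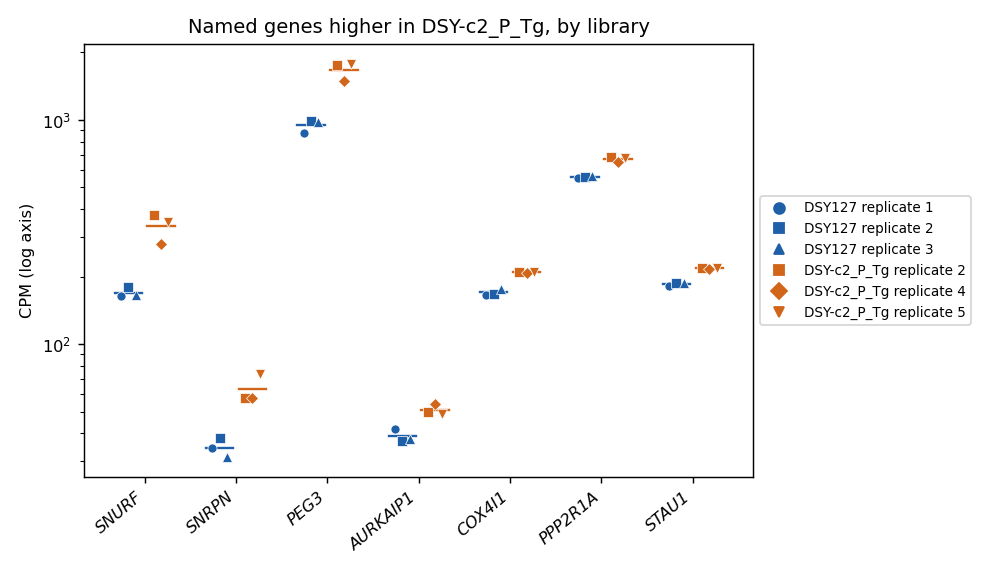
CPM (y axis, log scale) of the 7 named genes with a rise, by library; marker shapes give the replicate, blue is DSY127, orange is DSY-c2_P_Tg and bars are arithmetic means. Every orange point lies above every blue point of its gene, with gaps from narrow (STAU1, 181 to 188 against 216 to 218 CPM) to wide (PEG3 and SNURF).

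COX4I1, a subunit of cytochrome c oxidase, was at 166, 168 and 176 CPM in DSY127 and 209, 208 and 209 CPM in DSY-c2_P_Tg (log2 0.30 ± 0.06, edgeR adjusted p = 0.013). It was the 1 gene of 19 tested in oxidative phosphorylation that rose, where 0.156% of all genes tested rose, and 11 of the 19 had all 3 DSY-c2_P_Tg libraries above all 3 of DSY127, against 8.85% of all genes tested. The list median was 0.13. AURKAIP1, a protein of the mitochondrial ribosome, was at 41.9, 37.1 and 37.7 CPM and at 49.9, 54.2 and 48.8 CPM (log2 0.39 ± 0.10, edgeR adjusted p = 0.0456). PPP2R1A, the scaffold subunit of protein phosphatase 2A, was at 550, 554 and 563 CPM and at 681, 651 and 678 CPM, and STAU1, which binds double-stranded RNA, rose by a log2 change of 0.23 ± 0.06.

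Of these 4, AURKAIP1 stayed called with the suffix covariate (edgeR adjusted p = 0.0374, log2 0.60), but its call ended without any 1 library (0.0583 to 0.129). COX4I1 passed without any 1 library and not with the covariate (0.228). The STAU1 call ended without any 1 library (0.0551 to 0.144), and that of PPP2R1A without any 1 but DSY-c2_P_Tg replicate 4 (0.0483 to 0.129).

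A fall and a rise without a symbol, given by identifier and chosen after their values were seen, separated the groups by far more than the spread within them. ENSCJAG00000036175 was at 11.9, 13.1 and 13.2 CPM in DSY127 and 0.0444, 0.0615 and 0.03 CPM in DSY-c2_P_Tg, a log2 change of -8.08 ± 0.40 (edgeR adjusted p = 1.39e-08, and 1.93e-06 with the suffix covariate). The same gene was at 41.0, 64.2 and 62.1 CPM in N40_P_Tg and 24.1, 38.3 and 29.3 CPM in No.40. ENSCJAG00000028408 was at 0.102, 0.237 and 0.352 CPM in DSY127 and 4.34, 3.98 and 4.53 CPM in DSY-c2_P_Tg, a log2 change of 4.19 ± 0.35 (edgeR adjusted p = 1.42e-05, and 0.00293 with the covariate). In No.40 it was at 3.57 to 4.94 CPM and in N40_P_Tg at 4.37 to 6.27 CPM, so DSY127 was the low group among the primed cells. The files and name table used here give neither a symbol.

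Pluripotency genes gave no call. None of 8 shared, 12 naive and 10 primed pluripotency genes tested passed, and list medians were 0.12, 0.09 and -0.08. NANOG was at 307, 346 and 298 CPM in DSY127 and 415, 354 and 519 CPM in DSY-c2_P_Tg, a log2 change of 0.44 ± 0.14 (edgeR adjusted p = 0.189). SOX2 was at 79.3, 79.4 and 67 CPM and at 112, 62.7 and 97.5 CPM. LIN28A, an RNA-binding regulator of the let-7 miRNAs, was at 345, 374 and 348 CPM and at 364, 340 and 379 CPM. The groups overlapped for SOX2 and LIN28A but not for NANOG, which passed in the fit without DSY-c2_P_Tg replicate 4 (log2 0.61, edgeR adjusted p = 0.0483).

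KLF17, a factor of the naive state in primates, was at 8.95, 9.42 and 8.87 CPM and at 21.6, 25.2 and 27.5 CPM without passing (log2 1.45 ± 0.62, edgeR adjusted p = 0.496). A fit of the 6 libraries alone called it (0.0093), and the suffix covariate left a log2 change of 0.11. ARGFX, an early embryo homeobox gene, was at 0.467, 0.492 and 0.634 CPM and at 1.89, 1.05 and 1.68 CPM (log2 1.53 ± 0.53, edgeR adjusted p = 0.288). TBX3, a T-box factor, went the other way, at 11.4, 11.6 and 24.7 CPM and at 2.53, 3.03 and 4.63 CPM (log2 -2.22 ± 0.56, edgeR adjusted p = 0.0625). KLF4 and MYC, which are reprogramming factors with POU5F1, SOX2, NANOG and LIN28A, were not called (log2 0.08 ± 0.19 and 0.26 ± 0.14). A p that misses the threshold does not show equal levels. The lists for the NODAL, BMP, WNT, FGF-ERK and NOTCH pathways, DNA methylation, polycomb, cell cycle, p53 and interferon response gave no call in either direction.

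Glycolysis gave no call among 17 genes tested, with a median log2 change of 0.25, and 9 of them had all DSY-c2_P_Tg libraries above all of DSY127, against 8.85% of all genes tested. PDK1, a kinase that holds back pyruvate oxidation, was at 27.2, 26.0 and 25.7 CPM and at 33.2, 29.9 and 44.2 CPM (log2 0.44 ± 0.13, edgeR adjusted p = 0.145). GAPDH was at 1240, 1300 and 1240 CPM and at 1280, 1180 and 1360 CPM.

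Genes of mesoderm and endoderm set DSY-c2_P_Tg replicate 4 apart from its group. CER1, a secreted NODAL and BMP antagonist of anterior endoderm, was at 130 and 102 CPM in replicates 2 and 5 and at 2060 CPM in replicate 4, against 290, 16.1 and 44.0 CPM in DSY127. EOMES, a T-box factor of the primitive streak, was at 8.91, 109 and 5.04 CPM, with 24.0, 5.89 and 28.5 CPM in DSY127. GATA6, an endoderm factor, was at 12.1, 162 and 7.9 CPM, with 32.5, 7.31 and 46.6 CPM in DSY127. The 9 tested definitive endoderm genes summed to 205, 2450 and 150 CPM in DSY-c2_P_Tg and 408, 66.5 and 238 CPM in DSY127. No gene of the endoderm list or of the 12 tested genes of primitive streak and mesoderm was called, and their medians moved from 0.61 to -0.53 and from -0.05 to -0.71 without replicate 4. MESP1, a defining marker of early mesoderm, was at 0 in 2 libraries of each group. The part of such cells in the other results was not tested, and 176 of the 337 calls, 15 rises and 161 falls, passed in the same direction without replicate 4.

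**Figure D4:**
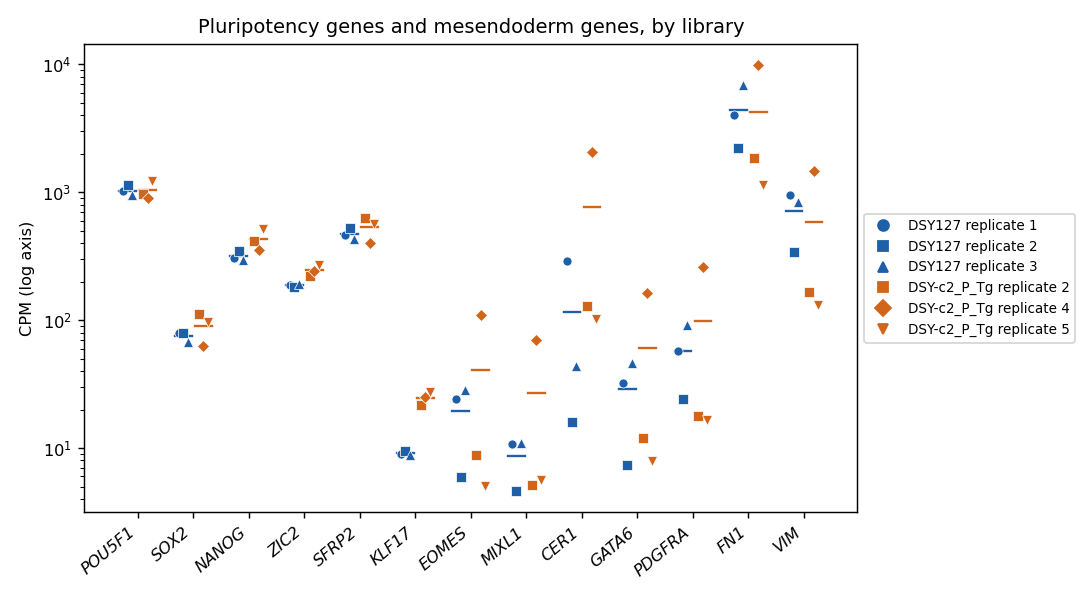
CPM (y axis, log scale) of pluripotency genes (POU5F1 to KLF17) and of genes of primitive streak, endoderm and mesenchyme (EOMES to VIM), by library; marker shapes give the replicate, blue is DSY127, orange is DSY-c2_P_Tg and bars are arithmetic means. DSY-c2_P_Tg replicate 4 (diamond) is the highest of the 6 libraries in each gene from EOMES to VIM. It is the lowest of the 6 in POU5F1, SOX2 and SFRP2 and lies among the others in NANOG, ZIC2 and KLF17.

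Adding the suffix covariate changed how many calls passed more than it changed their size. Because suffix and group coincide here, the covariate widens the SE whether or not the suffix has an effect. In counts simulated without a suffix effect, the share of 2-fold changes recovered was 59% by group alone and 29% with the covariate. For 4-fold changes it was 89% and 67%. The changed genes were drawn from those above a minimum expected count, so these shares may not hold for genes of low level. All 337 log2 changes kept their sign with the suffix covariate. The median log2 change went from 0.94 to 1.03 in the rises and from -4.33 to -4.47 in the falls, while the median SE went from 0.17 to 0.25 and from 0.77 to 1.05. The 259 calls that no longer passed kept a median of 0.977 of their size with an SE 1.41 times larger. How far a suffix effect has a part in the loss of these calls was not tested. The suffix effect itself was called in 31 genes (0.173%), and 0 of these were among the 337. At that share few or none of 337 genes would be called, so the 0 does not show that the calls are free of the suffix. Of the 337, 17 moved by more than 1 on the log2 scale.

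Of the 69 calls with a symbol, 16 survived the covariate, the rises SNURF, SNRPN and AURKAIP1 and the 13 falls named above. The survival count rests on few libraries, since the suffix effect comes from 1 library against 2 in each of No.40 and DSY-c2_N_TgON. In No.40 the L6 and L7 library, replicate 1, summed to 1400 CPM over the definitive endoderm list, against 78.5 and 32.3 CPM in replicates 2 and 3. Over the fibroblast list it summed to 15000 CPM, against 7820 and 2220 CPM. The suffix effect and such differences between libraries cannot be told apart there. With No.40 alone as its source 11 of the 337 calls passed (6 rises and 5 falls), and with DSY-c2_N_TgON alone 24 did (4 rises and 20 falls). Among calls with a symbol, 4 passed from No.40 alone and 6 from DSY-c2_N_TgON alone. Only PRRX1 of the 16 passed from both sources, each taken alone. NR2F1, HOXA2, ZEB2, COL3A1, COL1A1, OGN, RSPO2 and MMP16 passed from neither. MEIS1, NFIX, ASPN and EBF1 did not pass from No.40, and SNURF, SNRPN and AURKAIP1 did not pass from DSY-c2_N_TgON. The covariate together with leaving out DSY-c2_P_Tg replicate 4 kept 87 of the 337.

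**Figure D5:**
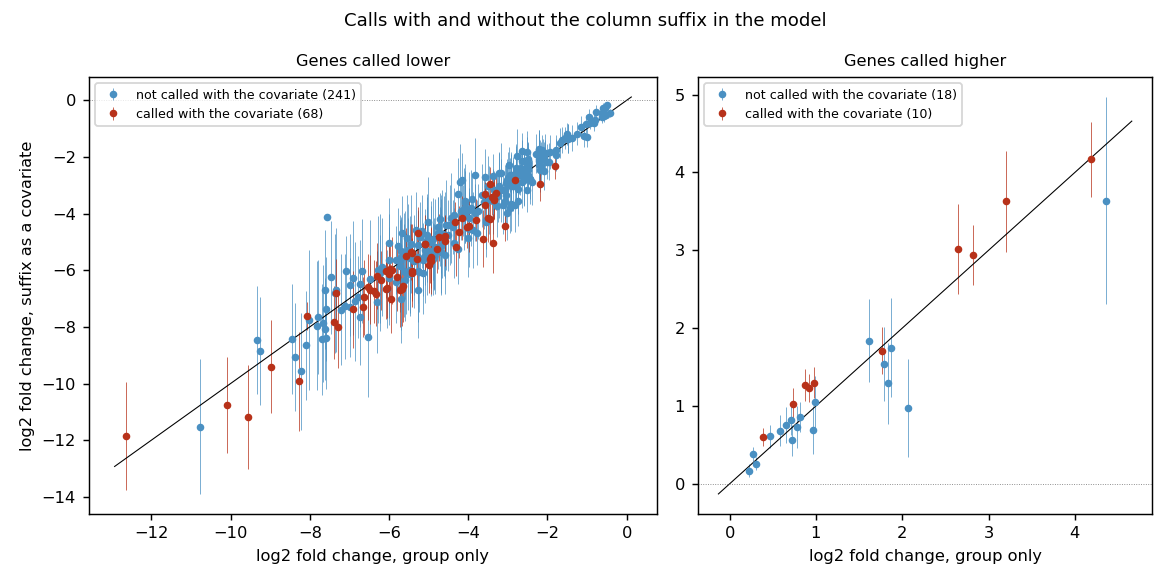
Log2 fold change with suffix as a covariate (y axis, bars are 1 SE) against the log2 fold change of the fit by group alone (x axis) for the 309 genes called lower (left) and the 28 called higher (right); the line marks equal values. Points follow the line in both panels, and red points are the 68 falls and 10 rises that also passed with the covariate.

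The second pair of primed groups gave a place for each call. N40_P_Tg against No.40 called 3937 genes (21.9%), 1490 higher (8.3%) and 2447 lower (13.6%). Of the 309 falls, 271 were also called lower there, 2 were called higher and 36 were not called, with a median log2 change of -4.61. Their summed level was uneven in No.40, at 5307, 7690 and 3625 CPM, and was 2622, 2479 and 2283 CPM in N40_P_Tg. Falls without a symbol summed to 1409, 2846 and 712 CPM in No.40, with replicate 2 the highest. PRRX1 was at 33.1, 61.1 and 14.9 CPM in No.40 and 0.15, 0.466 and 0.367 CPM in N40_P_Tg, with a log2 change of -6.79 beside -6.65 in the DSY pair. NR2F1 had no count in N40_P_Tg and was at 1.86, 5.65 and 0.886 CPM in No.40. All columns of this pair end in L1 or L2 but those of No.40 replicate 1, which end in L6 or L7.

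Of the 28 rises, 7 were also called higher in the second pair, 3 were called lower and 18 were not called, with a median log2 change of 0.33. The difference of the 2 changes was tested for each gene and called in 570 genes (3.17%), among them 11 of the 28 rises and 13 of the 309 falls. PEG3 was the clearest case among named genes. It was at 813, 898 and 1010 CPM in No.40 and 453, 428 and 504 CPM in N40_P_Tg (log2 -0.97, edgeR adjusted p = 1.59e-04), so the change was opposite to that in the DSY pair and the difference was 1.80 ± 0.19 (edgeR adjusted p = 8.93e-05). SNRPN, at 30.2, 47.1 and 48.1 CPM in No.40 and 71.4, 77.7 and 67.8 CPM in N40_P_Tg, rose in both pairs, with log2 changes of 0.79 and 0.87. COL1A1, at 1410, 1290 and 902 CPM and at 761, 595 and 492 CPM, was not called in the second pair (log2 -0.96, edgeR adjusted p = 0.115), and the difference between the pairs was not called either (adjusted p = 0.284).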

How the data were processed

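Poly(A)+ RNA was isolated with an RNeasy Mini Kit and made into TruSeq Stranded mRNA libraries, per the labels' protocols. Per the submitters' processing notes, the authors used Trim Galore 0.4.0, STAR 2.5.3a and featureCounts 1.5.2, and deposited a table of raw read counts per gene with 2 columns a library. No source used here gives the genome build, the annotation or the counting options. Of counts from 1 to 49, 63.3% were even, as when both mates of a pair are counted, so halved counts were tried. The 2 columns of a library were summed, and 6 columns of no listed sample were left out. A name table gave symbols for 12660 of 30811 gene IDs, and 7 symbols stood on more than 1 ID.

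Genes were filtered with filterByExpr, and TMM-scaled counts of the 18 ESC libraries in 6 groups were fitted with edgeR 4.0.16 (robust glmQLFit, glmQLFTest) in R 4.3.3. The contrast was DSY-c2_P_Tg minus DSY127, with Benjamini-Hochberg adjusted p under 0.05 over 17957 genes. DESeq2 1.42.0 was an alternative, and the fits were tested on simulated data. Tables and intervals were made in Python 3.11.15. SEs are log2 changes divided by the root of the F statistic. Values are TMM-scaled CPM, which are not corrected for gene length. The 6 compared libraries hold 45900648 to 63990669 counts, and floors (3 counts over a group) cover counting error only. They assume that each count is a separate fragment. The chi-square between the 2 columns of a library was 1.93 to 2.0 per gene, above that of independent counts, so fold bounds may be too high.

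Named are the 12 largest rises and falls with a symbol, a mean of 10 CPM or more in the group with the higher level, and groups that do not overlap (8 rises met this, of which 1 is not reported here), the 6 largest of each that also have a called difference between the 2 pairs, up to 4 called members of each of 39 lists, and pluripotency and reprogramming genes. The groups, genes and lists were chosen with earlier results of these data known. To ask which calls survive the suffix, a comparison within 1 suffix was not possible, and suffix was used as a covariate. The difference from the N40_P_Tg and No.40 pair had been meant as a further rule, but does not cancel the suffix, because N40_P_Tg has the columns of the other kind. Alternatives were another normalization, 2 filters, DESeq2, the compared groups alone, each column alone, halved counts, a 2-fold threshold and leaving out each library. Another 4 on the suffix and on libraries that stand apart were chosen after the data were seen. Titles number the libraries 1, 2 and 3 and 2, 4 and 5.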

Additional observations from a re-analysis of the deposited data

Results flagged for a closer look

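The change between DSY-c2_P_Tg and DSY127 differed from that between N40_P_Tg and No.40 in 9 of the 69 called genes with a symbol, by a test of the difference itself (edgeR adjusted p under 0.05). Over all genes tested 3.17% had a called difference. The called genes were chosen by the DSY change, which is part of the difference, so the choice itself favours a called difference. The PEG3 difference was 1.8 on the log2 scale, with a rise in the DSY pair (log2 0.82) and a fall in the other (log2 -0.97), and it passed in all 12 fits that each left out 1 library (edgeR adjusted p up to 0.00106) and with the suffix covariate (1.85, edgeR adjusted p = 0.00678). In the other 8 genes the difference was below 0. The difference was -2.75 for COL2A1, -1.0 for EPN2, -0.86 for HEATR3, -0.46 for RABGAP1 and -0.67 for RPS13, a ribosomal protein gene whose processed copies make its count uncertain. It was -0.77 for each of TRAF3IP1 (a ciliary transport protein), UBXN11 (a UBX domain protein) and ZFP36L2 (an mRNA decay factor).

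TRAF3IP1 was at 30, 32.8 and 34.4 CPM in DSY127 and 23.5, 24.4 and 25.2 CPM in DSY-c2_P_Tg, with 28.2, 25.6 and 28.2 CPM in No.40 and 31.3, 38.9 and 35.2 CPM in N40_P_Tg, so it fell in one pair and rose in the other (log2 -0.41 and 0.36). EPN2, HEATR3 and TRAF3IP1 differed in all 12 fits without 1 library. None of the 8 differences below 0 passed with the suffix covariate (edgeR adjusted p 0.16 to 0.687). COL2A1 lost the call in 6 of the 12 fits, RABGAP1 in 8, RPS13 in 7, UBXN11 in 8 and ZFP36L2 in 1.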

How the results depend on the processing

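The 337 calls became 549 with DESeq2 (80 higher and 469 lower, 336 of the 337 among them) and 179 against a 2-fold threshold. They became 100 with the suffix covariate, 88 with the suffix effect from DSY-c2_N_TgON alone, 25 with that from No.40 alone and 160 without both DSY-c2_P_Tg replicate 4 and DSY127 replicate 3. Leaving out 1 library gave 146 to 262. The suffix covariate and the left-out libraries use fewer residual degrees of freedom. The calls held within 1.5 times, at 257 to 368, with another normalization, both filters, each column alone, halved counts and the compared groups alone. The 570 differences between pairs became 1395 with DESeq2, 352 without a filter, 19 against the 2-fold threshold, 42 with the suffix covariate and 205 (without DSY127 replicate 2) to 907 (without No.40 replicate 3) without 1 library. Of the 69 calls with a symbol, 20 passed without any 1 library. RPS13 turned direction with the suffix effect from DSY-c2_N_TgON alone (log2 0.05, edgeR adjusted p = 0.939), and the cause was not tested. ARGFX and TBX3 passed with DESeq2, KLF17 and TBX3 in the fit of the compared groups alone, and NANOG without DSY-c2_P_Tg replicate 4.

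No paired analysis was possible because the titles number the DSY127 libraries 1, 2 and 3 and the DSY-c2_P_Tg libraries 2, 4 and 5. For the difference between pairs a replicate block on No.40 and N40_P_Tg gave 575 calls against 395 without it in the same 4 groups. Same-numbered libraries deviated with r of -0.1, 0.126 and -0.116, and differently numbered ones with r of -0.145 to 0.22. With 3 libraries a group these values do not settle whether the numbers pair the libraries, and the main fit used no block. Depth limits genes near the floor of 0.0151 CPM, which includes 30 falls without a DSY-c2_P_Tg count.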

Other observations

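A run of 27 neighbouring genes at the end of 1 chromosome in the RefSeq order, from COL6A3 to D2HGDH, was low in DSY-c2_P_Tg. The run was picked because its log2 changes are low, so its values describe that choice and support nothing. Gene order comes from the RefSeq table of assembly calJac240_pri. The order covers 8329 genes with a symbol and a mean of at least 5 CPM. The median log2 change of the run was -0.22, and -0.2 with the suffix covariate. Over 7661 windows of 30 neighbours the median ranged from -0.22 to 0.16, and the lowest was centred on GPC1, within the run. Medians by library against the mean of DSY127, with 0.1 CPM added, were -0.22, -0.21 and -0.25 in DSY-c2_P_Tg replicates 2, 4 and 5 and -0.01, 0.01 and 0.03 in DSY127.

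TRAF3IP1 was the 1 gene of the run that was called, and NDUFA10, a subunit of respiratory complex I, was at 70.2, 78.4 and 82.5 CPM in DSY127 and 69.5, 65.1 and 64.9 CPM in DSY-c2_P_Tg. DTYMK, the thymidylate kinase, was at 47.7, 49.3 and 48.9 CPM and at 44.2, 37.7 and 37.0 CPM. RBM44, which had the lowest log2 change of the run (-1.27), was at 73.3, 78.0 and 70.7 CPM and at 41.4, 19.2 and 31.4 CPM and was not called. GPC1 was the 1 gene of the run above 0 (log2 0.02). These genes were chosen after their values were seen. In the other pair the run had a median of 0.19. The DSY-c2_N_TgON libraries were at -0.15, -0.08 and -0.03 against DSY127 and those of No.40 at -0.14, -0.17 and -0.17. The run was not tested as a whole, and 0 of its genes were called with the suffix covariate.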
